A study of Rattus norvegicus with 31 samples.

Results

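Cells copy their DNA once and then divide, and 37 genes of these steps were followed in rat blood: 13 of DNA replication, 14 cyclins, cyclin-dependent kinases and their inhibitors, and 10 of mitosis. They were taken from a list of names, drawn up with earlier results of these data known. Each was matched by the gene name that the array files give to its probes, by a known alias or by an updated name. All 37 were on the array, with 63 probes of 41012 in all. Of these probes 60 passed the filter on dim signals (red signal well above background on at least 7 arrays), so that all 37 genes were among the 22262 features tested. The 3 probes that did not pass, of Aurka, Bub1b and Ccna2, were well above background on 1 array each, and another probe stood for each of those genes.

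The samples are PBMC, the mononuclear fraction of circulating blood (mainly lymphocytes, with monocytes), drawn from grown rat offspring after 4 months on chow. The WT group (7 samples) is taken to be the controls of the protocol, offspring of dams that were not restricted, suckled normally. The CR group (11) are offspring of dams given 20% less food on days 1 to 12 of pregnancy, suckled normally, and the CR-L group (13) are offspring of such restricted dams that also received leptin, the satiety hormone of fat tissue, until postnatal day 21, in doses that rose from 1.0 to 43.8 ng (5 times the intake with milk). The title of the series asks for a reversal by leptin of what restriction left behind, which sets CR against WT and CR-L against both. Female and male offspring were used, and neither the sex nor the litter of a sample is given. With 16 mated rats for 31 samples some must be littermates, and p-values may therefore be too small. Each sample was labelled red and set against a green pool made from 5 random samples per group, so a value is the log2 ratio of a sample over that pool.

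Resting blood lymphocytes are mostly out of the cycle. When a cell is stimulated, D-type cyclins bind Cdk4 and Cdk6 and release the E2F factors, which switch on genes for nucleotide supply and replication; cyclin E, cyclin A and cyclin B with Cdk2 and Cdk1 then drive replication and mitosis. Genes of the replication phase often carry E2F sites in their promoters, and genes of mitosis a CHR element, often with CCAAT boxes. Transcripts of late steps are in general lower where fewer cells divide. A ratio over a pool does not give their level, and cell division was not measured here.

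Red signal per array had a median of 69.8 to 235 over a local background of 27 to 30.5, and 57.5% to 83.6% of spots were well above background. The upper ends of the signal and of that share were both WT 6, which stood apart. The next highest were 93.9 (CR-L 1) and 65.0% (WT 1). In another way CR-L 12, CR 11 and WT 1 stood out, with ratios close to 0 for several of the genes. Examples are Rrm2 (-2e-04) and Ccna2 (1e-04) in CR-L 12, Mki67 (2e-04) in CR 11 and Aurka (0.0019) in WT 1. The main fit did not scale arrays to each other, and the cause was not tested. The arrays lay on 8 slides of 3 to 4 arrays, 7 of them with 1 WT array. No pair of arrays was alike enough to be a repeat (highest correlation 0.784 over features). Defining markers of T cells (Cd3d, Cd3g), B cells (Cd79b, Pou2af1), cytotoxic cells (Prf1, Nkg7) and monocytes (Lyz2, Fcgr1a) were well above background on all 31 arrays. So were markers of platelets (Pf4, Treml1), red cells (Hbb, Hbb-b1) and plasma cells (Mzb1, Tnfrsf17). The same held in the list for granulocytes for S100a9 and Fcgr3a, and for 8 of its 12 measured genes in all. In the list for progenitors it held for Spn, which most leukocytes make, and Flt3.

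In the blood cells of leptin-treated offspring of restricted dams (CR-L), 3 of the 37 genes differed from WT. Mcm6, a subunit of the ring that unwinds DNA, was 1.22-fold lower, and the D-type cyclins Ccnd1 and Ccnd3 were 1.42-fold and 1.19-fold higher (limma, Benjamini-Hochberg adjusted p under 0.05 over all features). That is 8.11% of the genes, against 3.54% of all 22262 features called in this comparison (2.15% higher and 1.4% lower). No member was called between CR and WT, where 0.467% of all features were, and none between CR-L and CR, where the share of all features called was 0%. At an unadjusted p under 0.05, 6 members passed in CR against WT (16.2%), 5 higher and 1 lower, where 12.4% of all features did, 7.52% higher and 4.86% lower. In CR-L against WT 8 passed (21.6%), 7 higher and 1 lower, beside 16.6% of all features, 9.5% higher and 7.12% lower. CR-L and CR were set apart at that level in 2 members (5.41%), both higher in CR-L, beside 2.32% of all features, 1.24% higher and 1.08% lower. Both comparisons with WT share the 7 WT samples. CR-L differs from WT by restriction and by leptin, and no group had leptin without restriction, so these cannot be told apart in that comparison. Fewer cells of a type and less RNA per cell cannot be told apart in any of these values.

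**Figure D1:**
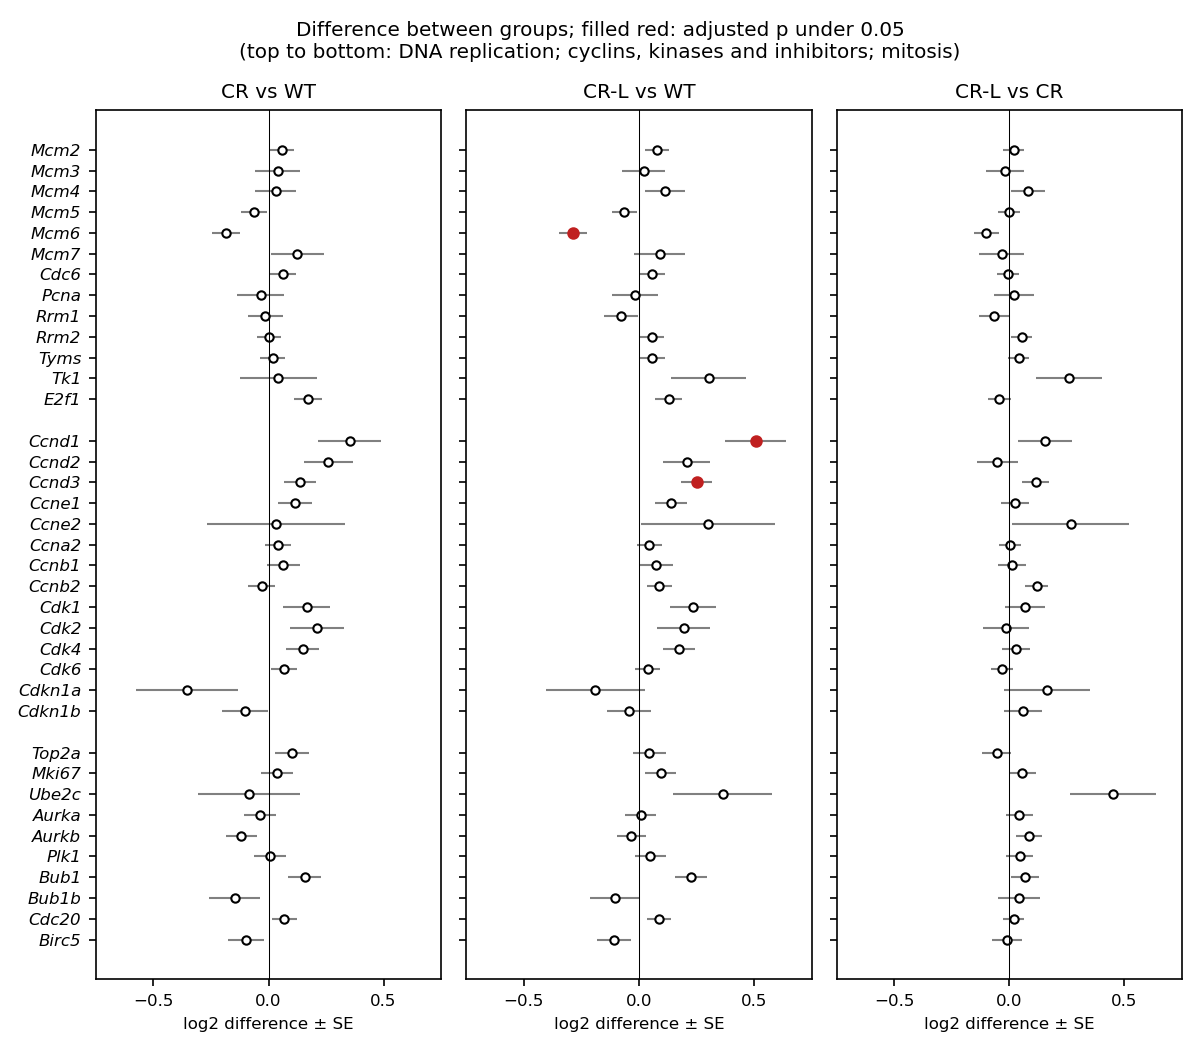
Differences of group means (log2, horizontal axis, bars are ± SE) for the 37 genes in the 3 comparisons, ordered by role from replication at the top to mitosis at the bottom. Filled points, Mcm6, Ccnd1 and Ccnd3 in CR-L against WT, have an adjusted p under 0.05.

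As a group, the cyclins, kinases and inhibitors lay above WT most often, though not the inhibitors in it. Of the 14, 11 were above 0 in CR and 12 in CR-L, with a median difference of 0.091 and 0.16. The inhibitors lay below WT in CR and in CR-L (Cdkn1a -0.35 and -0.19, Cdkn1b -0.10 and -0.044). The 13 replication genes had medians of 0.031 and 0.058 (9 above 0 in both), and the 10 mitosis genes -0.016 and 0.048 (5 and 7 above 0). Over all features the median was 0.012 in both comparisons, with 55.5% and 55.1% above 0. Between CR-L and CR the medians were -0.00072 for replication, 0.043 for cyclins and 0.044 for mitosis, against -0.0027 over all features. Over the 16 alternatives other than leaving out samples, the cyclin median ran from 0.053 (mean of all probes of a gene, 9 of 14 above 0) to 0.18 (Agilent's log ratio) in CR. In CR-L it ran from 0.090 (mean of all probes, 11 of 14 above 0) to 0.22 (array medians without loess). With array medians without loess the median over all features also rose, to 0.068 in CR and 0.072 in CR-L. The replication median ran from 0.011 to 0.084 in CR and from 0.043 to 0.15 in CR-L, and the mitosis median from -0.038 to 0.039 and from 0.031 to 0.11. These are descriptions and no test was made of a group.

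Promoters of the genes were read from the RefSeq sequence table (build GRCr8), which held 26 of the 37, from 250 bases before to 50 after the start site. An E2F word (TTTCCCGC, TTTGGCGC, TTTCGCGC or TTTGCCGC, either strand) was in 6 of 9 replication promoters, 1 of 9 cyclin, kinase and inhibitor promoters and 0 of 8 mitosis promoters, against 2.14% of all 33469 promoters. The CHR word TTTGAA, searched on both strands, was in 1 of 9, 2 of 9 and 6 of 8 promoters in that order of roles, against 18.3% of all. CCAAT, on either strand, was in 17 of 26, against 37.5%. The 4 upstream stretches of 250 bases are shown because Mcm6 and Ccnd3 were called, Cdk1 holds all 3 kinds of word and Cdc20 is a mitosis promoter with CHR and CCAAT only. Capitals mark the words on either strand, and in Mcm6 the words TTTGGCGC and, on the other strand, TTTCGCGC overlap.
Mcm6, chr13:42404353-42404602, minus strand: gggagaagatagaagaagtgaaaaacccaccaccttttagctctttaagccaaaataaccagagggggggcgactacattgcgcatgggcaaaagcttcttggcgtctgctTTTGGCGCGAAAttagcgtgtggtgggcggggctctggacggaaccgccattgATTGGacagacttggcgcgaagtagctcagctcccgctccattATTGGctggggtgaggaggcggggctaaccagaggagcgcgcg
Cdk1, chr20:19265043-19265292, plus strand: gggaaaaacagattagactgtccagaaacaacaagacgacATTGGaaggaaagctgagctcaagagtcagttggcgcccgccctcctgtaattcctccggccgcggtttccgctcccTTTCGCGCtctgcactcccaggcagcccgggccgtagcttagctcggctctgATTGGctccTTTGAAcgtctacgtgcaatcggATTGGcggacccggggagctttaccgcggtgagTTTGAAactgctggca
Cdc20, chr5:137255800-137256049, minus strand: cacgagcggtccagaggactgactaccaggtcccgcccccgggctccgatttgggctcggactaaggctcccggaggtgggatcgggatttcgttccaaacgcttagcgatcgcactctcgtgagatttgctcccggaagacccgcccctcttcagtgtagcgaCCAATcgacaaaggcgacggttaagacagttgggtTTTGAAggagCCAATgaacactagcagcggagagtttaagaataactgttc
Ccnd3, chr9:20897876-20898125, minus strand: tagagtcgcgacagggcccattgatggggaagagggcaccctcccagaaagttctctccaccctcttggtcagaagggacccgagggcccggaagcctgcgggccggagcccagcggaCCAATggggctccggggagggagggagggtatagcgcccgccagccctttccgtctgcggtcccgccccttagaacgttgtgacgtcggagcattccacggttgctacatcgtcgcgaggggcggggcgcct
A match is a description of the letters and says nothing of a factor's binding in these cells.

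Mcm6 was measured by 1 probe, placed by the files at chr13:41052148-41052207 on the minus strand of rn4. Its sequence is given since the one call among the replication genes rests on it:
Mcm6 probe: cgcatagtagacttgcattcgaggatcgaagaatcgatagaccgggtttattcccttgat
The log2 ratio of Mcm6 ran from 0.011 over a median of 0.15 to 0.30 in WT. It ran from -0.20 over -0.027 to 0.17 in CR, and from -0.34 over -0.13 to 0.18 in CR-L. Of the CR-L samples 11 of 13 lay below every WT sample, as did 6 of 11 CR samples, and CR-L 10 was the 1 CR-L sample above the WT median. Among these CR-L samples, CR-L 12 at 0.0029 lay only just below the lowest WT sample (0.011). CR-L was lower than WT by limma (-0.29 ± 0.061, adjusted p = 0.00576). In CR the difference was -0.18 ± 0.063 (adjusted p = 0.178), and between CR-L and CR it was -0.10 ± 0.053 (p = 0.0678 by limma, not adjusted), so the response of the 2 groups is not shown to differ. Within slides the CR-L mean lay below the WT sample on 7 of 7 slides, by -0.12 to -0.47, and the CR mean on 6 of 7. Centring arrays on their median without loess ended the call (-0.17 ± 0.11, adjusted p = 0.462), and over the other alternatives the adjusted p went from 0.00115 to 0.0225. Leaving out any single sample kept the difference between -0.31 and -0.26.

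None of the other subunits of the ring, which is loaded at origins before replication, passed the threshold, and whether they differ from Mcm6 was not tested. Mcm2 stood at 0.059 in CR and 0.077 in CR-L against WT, Mcm3 at 0.039 and 0.020, Mcm4 at 0.031 and 0.11, Mcm5 at -0.063 and -0.064, and Mcm7 at 0.12 and 0.091. Their SE was 0.052 to 0.11. CR-L stood against CR between -0.034 and 0.081. Other probes of Mcm2 (0.015) and Mcm3 (0.015) kept their sign in CR-L against WT and that of Mcm4 did not (-0.086).

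E2f1, the factor that drives replication genes, had values from -0.23 over a median of -0.11 to 0.040 in WT. In CR they ran from -0.094 over 0.027 to 0.30, and in CR-L from -0.11 over 0.018 to 0.32. All 11 CR samples and 12 of 13 CR-L samples lay above the WT median, with ranges that overlap. The differences were 0.17 ± 0.060 for CR (adjusted p = 0.194) and 0.13 ± 0.058 for CR-L (adjusted p = 0.249), and -0.043 ± 0.051 between them. The other E2f1 probe gave -0.022 ± 0.072 and -0.031 ± 0.070, and its correlation with the first was 0.055 over 31 arrays.

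Cdc6, which loads the ring onto origins, ranged from -0.088 over -0.064 to 0.13 in WT, from -0.096 over 0.060 to 0.20 in CR and from -0.19 over 0.080 to 0.26 in CR-L. Its differences were 0.065 ± 0.056, 0.059 ± 0.055 and -0.0063 ± 0.048 in the order CR against WT, CR-L against WT and CR-L against CR. The ranges overlapped throughout, and it was well above background on 28 of 31 arrays. In CR-L against WT it passed with Agilent's log ratio (0.71 ± 0.20, limma adjusted p = 0.0456) and without background subtraction (adjusted p = 0.0447), and in no other alternative.

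For nucleotide supply, the 1 probe named for Tk1 (thymidine kinase) spread most. The files pair it with a Tk1 transcript but place it on chromosome 3 of rn4, whereas the RefSeq table has the gene on another chromosome, so all values given for Tk1 are uncertain as measures of that gene. Its values ran from -0.44 over -0.033 to 0.24 in WT, from -0.44 over -0.093 to 0.67 in CR and from -0.34 over 0.11 to 1.01 in CR-L. CR-L 13 and CR-L 9 (0.91) were the highest, and 6 of 13 CR-L samples lay above every WT sample. The differences were 0.043 ± 0.17, 0.30 ± 0.16 (adjusted p = 0.361) and 0.26 ± 0.14, in the same order. Rrm2, the regulated subunit of ribonucleotide reductase, ranged from -0.13 over 0.038 to 0.12 in WT, from -0.23 over 0.045 to 0.19 in CR and from -0.10 over 0.084 to 0.23 in CR-L. It differed by 0.0036 ± 0.052, 0.056 ± 0.051 and 0.053 ± 0.044, and its groups overlapped.

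Rrm1, the large subunit, depended on the probe. The brightest stood at -0.014 ± 0.077 in CR and -0.080 ± 0.074 in CR-L against WT, with CR-L 5 at -0.76 and all other samples between -0.21 and 0.16. A second probe gave -0.12 ± 0.062 and -0.14 ± 0.061. The remaining one, which the files place at chr1:159935130-159936070 of rn4, gave -0.16 ± 0.065 and -0.22 ± 0.063, and passed in CR-L against WT when each of 26721 probes was tested by itself (limma adjusted p = 0.0419; 3.48% of probes were called). The 2 correlated with the brightest at 0.19 and 0.13 over 31 arrays. Tyms, thymidylate synthase, stood at 0.018, 0.058 and 0.040 in the 3 comparisons, and Pcna, the sliding clamp, at -0.035, -0.016 and 0.019, with Rrm1 at -0.066 in the last. The other Pcna probe gave -0.13 ± 0.11, -0.16 ± 0.10 and -0.036 ± 0.091 and correlated with the first at 0.59.

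Ccnd1, the D-type cyclin that mitogens induce in many tissues, ran from -0.37 over a median of -0.23 to 0.019 in WT. In CR it ran from -0.092 over 0.011 to 0.88 and in CR-L from -0.16 over 0.27 to 1.16. All 11 CR and all 13 CR-L samples lay above the WT median, and 10 of 13 CR-L samples lay above every WT sample. CR-L 2 and CR 6 were the highest of their groups, with 0.61 and 0.50 as the next. CR-L was higher than WT by 0.51 ± 0.13 (limma adjusted p = 0.0267) and CR by 0.35 ± 0.14 (adjusted p = 0.259), with 0.16 ± 0.12 between CR-L and CR. The files place this probe at chr1:205357582-205357641 of rn4, minus strand, and a second at chr1:205359847-205359906. The second gave 0.47 ± 0.13 in CR-L against WT and correlated with the first at 0.947 over 31 arrays.

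The Ccnd1 call ended without WT 2 (adjusted p = 0.0691), WT 3 (0.0572) or WT 6 (0.0612), the differences then being 0.48, 0.48 and 0.49. It also ended with scaling between arrays (0.45, adjusted p = 0.0541) and with array medians without loess (0.59, 0.0729), and the adjusted p over all alternatives went from 0.00979 to 0.0729. Agilent's own log ratio put the difference at 0.84. Without CR-L 2 it was 0.44 and still called.

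Ccnd3, the D-type cyclin most used by lymphocytes, went from -0.23 over -0.037 to 0.12 in WT, from -0.26 over 0.11 to 0.26 in CR and from -0.029 over 0.19 to 0.41 in CR-L. All 13 CR-L samples and 10 of 11 CR samples lay above the WT median, and 9 CR-L samples lay above every WT sample. The difference was 0.25 ± 0.067 in CR-L (limma adjusted p = 0.0309), 0.14 ± 0.069 in CR (adjusted p = 0.426) and 0.11 ± 0.059 between CR-L and CR. CR and CR-L means lay above the WT sample on 7 of 7 slides, in CR-L by 0.027 to 0.39. Only 1 probe measures this gene, with no position in the files.

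The call of Ccnd3 was the least steady of the 3. It ended without WT 2 (adjusted p = 0.062), WT 3 (0.0518), WT 5 (0.0922) or WT 7 (0.0686), with differences from 0.22 to 0.25. It ended too with the red channel alone (0.12 ± 0.080, adjusted p = 0.441), the authors' deposited series table (0.24, 0.138), Agilent's log ratio (0.24, 0.0601), scaling between arrays (0.26, 0.259), array medians (0.43, 0.0897) and marker means of 5 blood cell types as covariates (0.21, 0.0508). With these covariates Mcm6 (-0.28 ± 0.069, adjusted p = 0.0219) and Ccnd1 (0.50 ± 0.12, adjusted p = 0.0201) passed. The 5 were T cells, B cells, monocytes, platelets and erythroid cells. Progenitors, plasma cells, cytotoxic cells and granulocytes were not among the covariates.

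**Figure D2:**
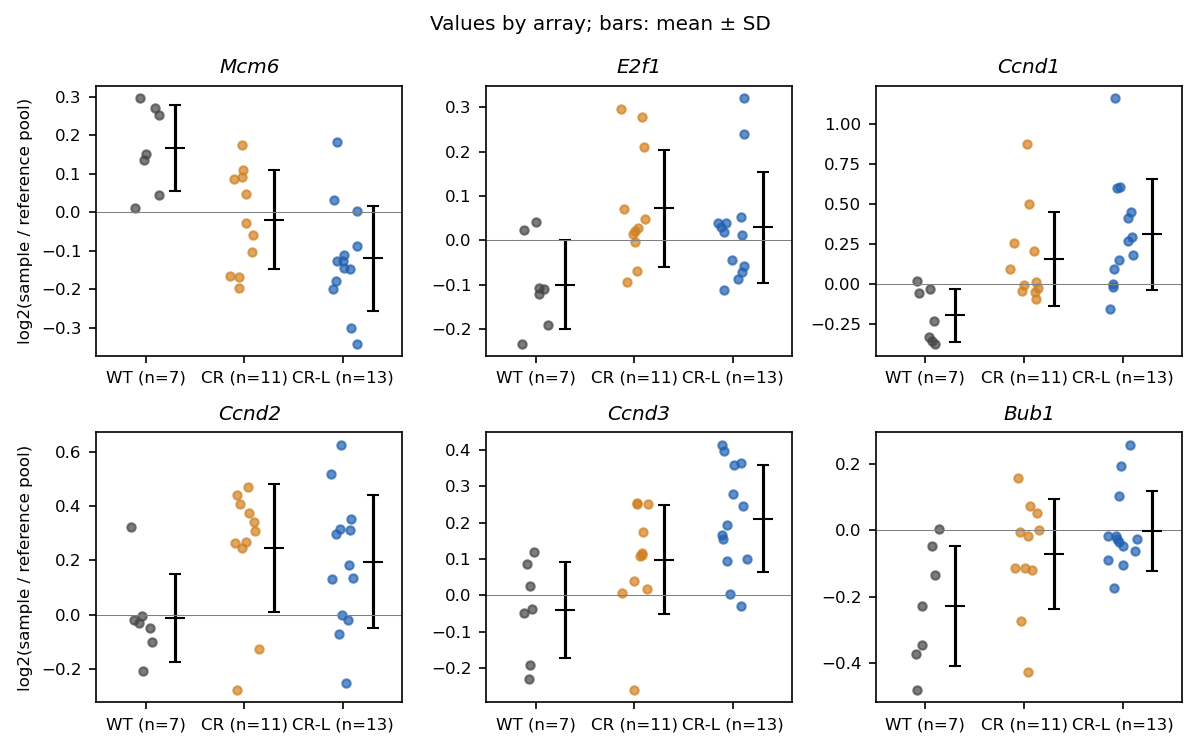
Log2 ratio over the reference pool on each array (points) for Mcm6, E2f1, the 3 D-type cyclins and Bub1, with the mean ± SD of each group beside them. Of the CR-L points, 11 of 13 lie below all WT points for Mcm6, and 10 and 9 of 13 lie above all WT points for Ccnd1 and Ccnd3.

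Ccnd2, the remaining D-type cyclin, ran from -0.21 over -0.031 to 0.32 in WT, from -0.28 over 0.31 to 0.47 in CR and from -0.25 over 0.18 to 0.63 in CR-L. WT 1 was the single high WT sample, and 9 of 11 CR samples lay above the WT median. Neither difference passed (CR 0.26 ± 0.11, adjusted p = 0.282; CR-L 0.21 ± 0.10, adjusted p = 0.3), and CR-L stood at -0.052 ± 0.089 against CR. The CR mean was above the WT sample on 7 of 7 slides and the CR-L mean on 6 of 7, with -0.12 on the remaining one.

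Cdk4, a kinase partner of the D-type cyclins, ran from -0.46 over -0.17 to 0.045 in WT, from -0.32 over -0.023 to 0.24 in CR and from -0.22 over 0.020 to 0.24 in CR-L. The CR-L samples lay above the WT median in 12 of 13 cases, and the ranges overlapped. The differences of 0.15 ± 0.072 (adjusted p = 0.391) and 0.18 ± 0.069 (adjusted p = 0.171) did not pass, with 0.027 ± 0.061 between CR-L and CR. Its other probe gave 0.12 ± 0.073 and 0.093 ± 0.071. Cdk6, the other partner, stood at 0.068, 0.037 and -0.031 in the 3 comparisons, and its 2 other probes lay between -0.052 and 0.031 against WT.

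Of the later cyclins and kinases, none passed. Cdk1, the mitotic kinase, stood at 0.17 ± 0.10 in CR and 0.23 ± 0.099 in CR-L against WT (adjusted p = 0.212), and Cdk2, of the step into replication, at 0.21 ± 0.12 and 0.19 ± 0.12. Set against CR, CR-L stood at 0.069 and -0.016. The other Cdk2 probe gave 0.020 ± 0.054 and -0.011 ± 0.053 against WT and correlated with the first at 0.20. Ccne1 (0.11, 0.14 and 0.025), Ccna2 (0.041, 0.045 and 0.0040) and Ccnb1 (0.065, 0.075 and 0.010) are given in the order CR against WT, CR-L against WT and CR-L against CR, with an SE of 0.048 to 0.073. Against WT the other Ccne1 probe gave 0.016 and -0.0031 (correlation 0.060 with the first), and the other Ccnb1 probe -0.14 and -0.011 (0.36).

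Ccnb2, a mitotic cyclin, ran from -0.24 over -0.081 to 0.039 in WT, from -0.30 over -0.14 to 0.067 in CR and from -0.21 over -0.014 to 0.18 in CR-L. CR had 3 samples below every WT sample and CR-L 5 above every one. CR-L stood 0.12 ± 0.049 above CR (unadjusted p = 0.0214 by limma, adjusted p = 0.9998), and the differences from WT were -0.030 ± 0.058 and 0.089 ± 0.056. It was well above background on 28 of 31 arrays.

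Ccne2, a partner of Cdk2, had 1 extreme value. CR-L 9 read 3.63 while the other 30 samples lay between -0.25 and 0.25, and the gene was well above background on 23 arrays. That sample enters the differences of CR-L from WT (0.30 ± 0.29) and from CR (0.27 ± 0.25), and, through the shared spread, the SE of CR against WT (0.034 ± 0.30). The other Ccne2 probe gave 0.070 ± 0.086 in CR-L against WT and correlated with the first at 0.068.

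Among the inhibitors, Cdkn1a (p21, a target of p53) spread widely, from -0.13 to 0.73 in WT, -0.50 to 0.76 in CR and -0.91 to 0.88 in CR-L. CR-L 2 was the lowest and CR-L 3 the highest. It stood at -0.35 ± 0.22, -0.19 ± 0.21 and 0.16 ± 0.19 in the 3 comparisons, with groups that overlap over most of their range. The other Cdkn1a probe gave -0.019 ± 0.066, -0.057 ± 0.064 and -0.039 ± 0.056 and correlated with the first at 0.26. Cdkn1b (p27, which holds lymphocytes in rest) stood at -0.10 ± 0.098, -0.044 ± 0.095 and 0.058 ± 0.083. The other Cdkn1b probe gave -0.073, -0.12 and -0.043 (correlation 0.36).

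Bub1, a kinase of the spindle checkpoint, came nearest among the mitosis genes. Its values ran from -0.48 over a median of -0.23 to 0.0055 in WT, from -0.43 over -0.017 to 0.16 in CR and from -0.17 over -0.025 to 0.26 in CR-L. All 13 CR-L samples lay above the WT median and 3 above every WT sample. CR-L differed by 0.23 ± 0.070 (limma adjusted p = 0.0668), CR by 0.16 ± 0.072 (adjusted p = 0.36), and CR-L from CR by 0.069 ± 0.061. Bub1 passed with the red channel alone (0.27, adjusted p = 0.0328) and without WT 1 (0.0434), WT 7 (0.0325), CR 1 (0.0417) or CR-L 10 (0.0423).

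Ube2c, which passes ubiquitin to targets of the anaphase-promoting complex, ran from -0.56 over -0.11 to 0.29 in WT, from -0.77 over -0.31 to 0.84 in CR and from -0.70 over 0.18 to 1.42 in CR-L. CR-L 13 was the highest, then CR-L 9 at 0.96, and CR 9 stood far above the next CR sample (0.31). CR-L lay 0.45 ± 0.19 above CR (unadjusted p = 0.0226 by limma, adjusted p = 0.9998). Against WT it stood at -0.085 ± 0.22 in CR and 0.36 ± 0.21 in CR-L. Without CR-L 13 the difference between CR-L and CR was 0.35 and without CR 9 it was 0.56. Over the 16 alternatives other than leaving out samples that difference ran from 0.10 to 0.58.

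Aurkb, a kinase of chromosome attachment, ran from -0.16 over -0.043 to 0.10 in WT, from -0.38 over -0.15 to 0.016 in CR and from -0.35 over -0.056 to 0.27 in CR-L. No CR sample was above every WT sample and 4 lay below every one. The differences were -0.12 ± 0.066 (unadjusted p = 0.0841), -0.034 ± 0.064 and 0.084 ± 0.056. Aurka, which acts at the spindle poles, stood at -0.036, 0.0074 and 0.043.

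Cdc20, an activator of the anaphase-promoting complex, ran from -0.21 over 0.089 to 0.18 in WT, from -0.011 over 0.16 to 0.25 in CR and from -0.037 over 0.13 to 0.40 in CR-L, with all groups overlapping. It stood at 0.069 ± 0.054, 0.088 ± 0.052 and 0.019 ± 0.045. Top2a, which untangles DNA, ran from -0.37 over -0.032 to 0.095 in WT, from -0.22 over 0.0060 to 0.31 in CR and from -0.39 over -0.0099 to 0.14 in CR-L. Its differences were 0.10 ± 0.075, 0.045 ± 0.073 and -0.056 ± 0.064, none past the threshold.

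None of the remaining mitosis genes passed either. Mki67, the proliferation antigen of dividing cells, stood at 0.038, 0.095 and 0.056, Plk1, a kinase of mitotic entry, at 0.0048, 0.050 and 0.045, and Birc5 (survivin) at -0.097, -0.11 and -0.011. Bub1b, a checkpoint partner of Bub1, was at -0.15, -0.10 and 0.042, with WT 7 at 0.61 as its highest sample.

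**Figure D3:**
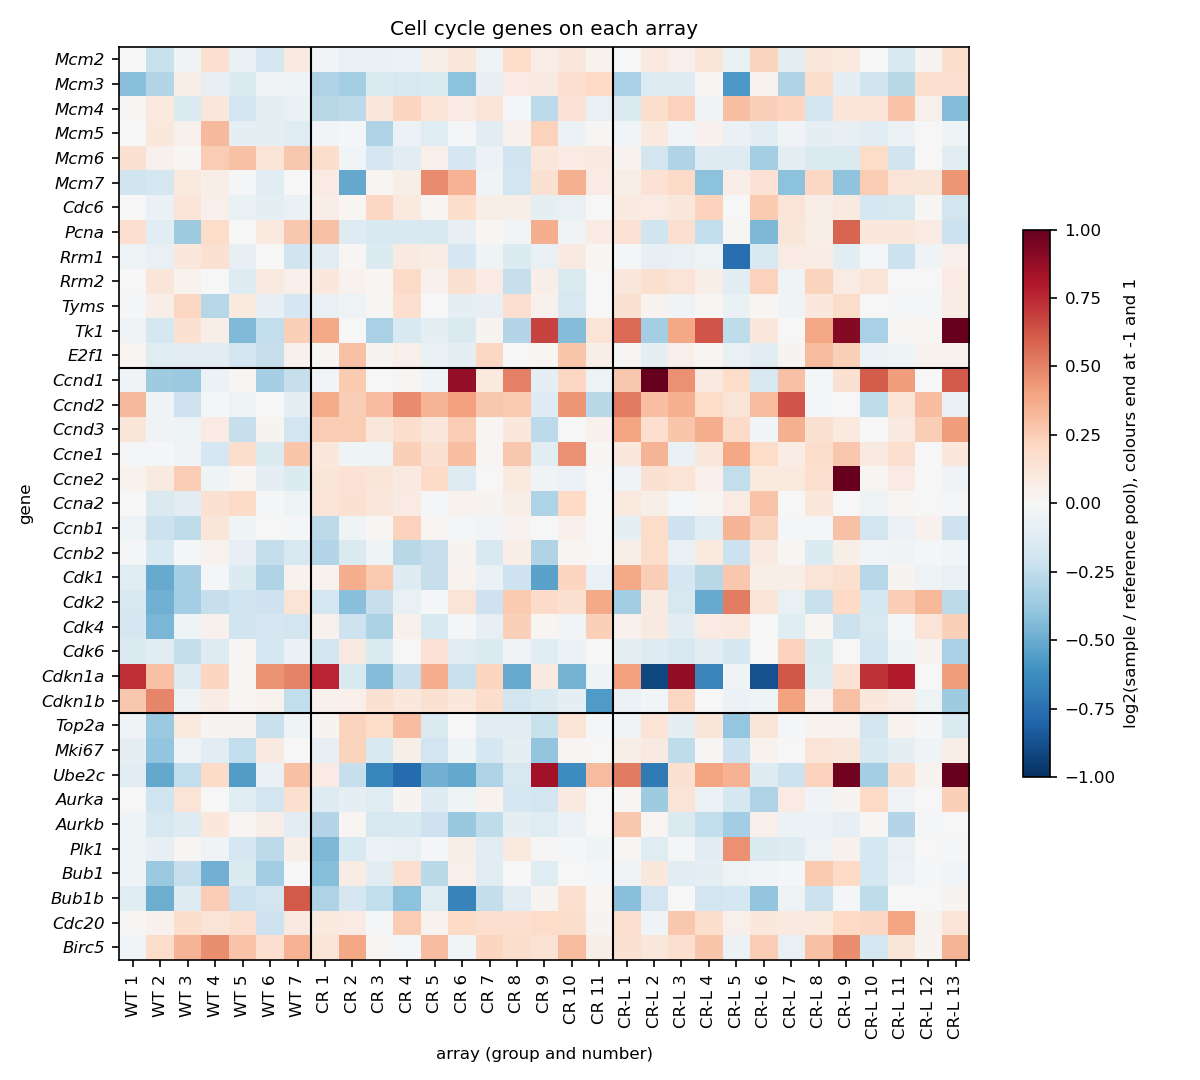
Log2 ratio over the reference pool for the 37 genes (rows) on the 31 arrays (columns), grouped by role and by WT, CR and CR-L, with colours that end at -1 and 1. Ccnd1 and Ccnd3 are mostly red and Mcm6 mostly blue in CR-L, and Tk1 and Ube2c share their high and low arrays.

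Correlations between the 37 genes were mostly near 0. With group means subtracted, their median pairwise correlation over 31 arrays was 0.043, and 1.8% of 666 pairs were above 0.5, against a median of 0.001 and 2.09% over all pairs of 22095 features. Within replication the median was 0.022, within cyclins 0.090 and within mitosis 0.11. The closest pair was Tk1, by its probe of uncertain placement, with Ube2c (0.85), followed by Ccna2 with Cdk1 (0.67) and Top2a with Mki67 (0.62). The most opposed was Cdk4 with its inhibitor Cdkn1b (-0.74). All values of a pair come from the same arrays, so they share each array's normalization, and these are descriptions.

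Replicate spread also differed between members. The SD over all arrays had a median of 0.16 in the 37 genes and 0.14 over all features. It was largest in Ccne2 (0.65), Ube2c (0.51), Cdkn1a (0.49) and Tk1 (0.38).

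Other probes of a gene mostly correlated weakly with its brightest. The 23 other probes of 20 genes correlated with the brightest probe at a median of 0.30 (0.055 to 0.95), and 7 were above 0.5. In CR-L against WT 15 of 23 had the sign of the brightest probe, in CR against WT 17. Ccnd1 (0.947), Cdk4 (0.896), Bub1b (0.849, 1 of its 2), Mcm3 (0.730) and Mki67 (0.706) had the closest probes. Mcm6 and Ccnd3 have no other probe to compare.

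Each gene was then set beside the mean log2 ratio of marker genes of 9 blood cell types over the 31 arrays, 333 pairs in all, with Pearson's r, Spearman's rho and 100000 permutations. By r, 15 pairs of 13 genes passed after Benjamini-Hochberg adjustment over the 333, and 8 of them also by rho, while 2 more passed by rho alone. The unadjusted permutation p of these 15 ran from 1e-05 to 0.00184 by r and from 1e-05 to 0.00725 by rho. The largest was Ube2c with the 22 measured erythroid markers (r = 0.89, rho = 0.91, permutation p = 1e-05 for each, the smallest the permutations can give, adjusted p = 0.000832 and 0.00111). It was 0.86 without CR-L 2 and CR-L 13, the arrays farthest from the median, 0.89 with group means subtracted and 0.87 with slide means subtracted. The probe named for Tk1, whose placement is uncertain, followed with the same markers (r = 0.79, rho = 0.81, permutation p = 1e-05 for each, adjusted p = 0.000832 and 0.00111; 0.73 without those arrays). Mcm4 went the other way (r = -0.59, rho = -0.51, permutation p = 0.00048 and 0.00341, adjusted p = 0.02 and 0.0668; -0.48 without them).

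The mean of the erythroid markers ran from -0.81 over a median of -0.19 to 0.019 in WT, from -1.50 over -0.45 to 0.63 in CR and from -1.58 over -0.071 to 1.26 in CR-L. Between CR-L and CR, 18 of 22 erythroid markers lay above 0, with a median of 0.40 and none past the adjusted threshold. Ube2c and Tk1 lay above 0 in the same comparison. Erythroid markers were among the covariates of an alternative fit, together with other lists, and the part of these cells alone in the differences was not tested.

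**Figure D4:**
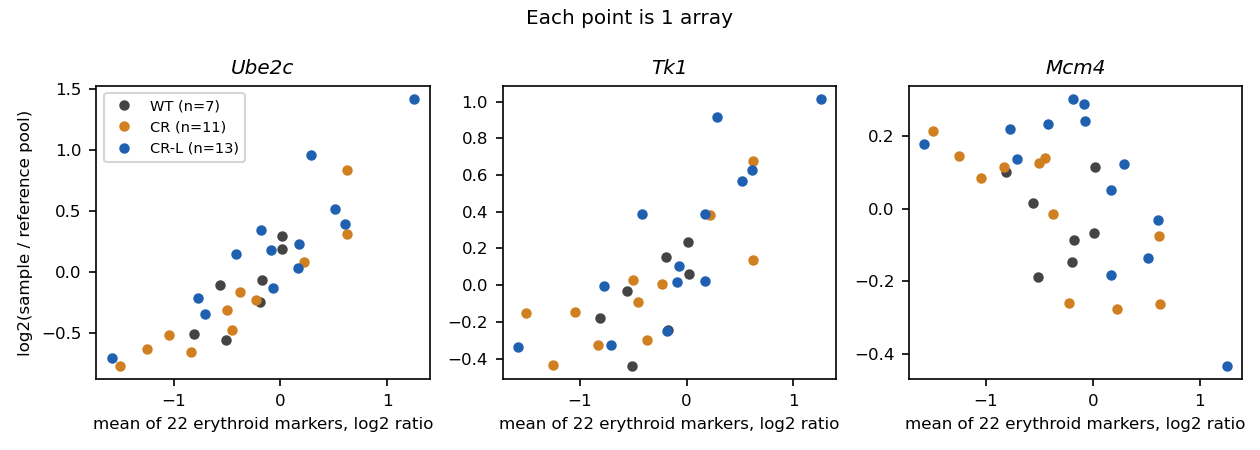
Log2 ratio of Ube2c, Tk1 and Mcm4 (vertical axes) against the mean log2 ratio of 22 erythroid markers (horizontal axes), 1 point per array, coloured by group. Over all arrays Ube2c and Tk1 rise with the markers (r = 0.89 and 0.79) and Mcm4 falls (r = -0.59).

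With the 10 measured B cell markers went Mcm3 (r = 0.73, rho = 0.73, permutation p = 1e-05 for each, adjusted p = 0.000832 and 0.00111; 0.63 without CR 6 and CR-L 5), Birc5 (r = 0.63, rho = 0.66, permutation adjusted p = 0.00799 and 0.0025; 0.57) and Bub1b (r = 0.56, rho = 0.54, permutation adjusted p = 0.0363 and 0.0552; 0.48), and against them Ccnd2 (r = -0.54, rho = -0.57, permutation adjusted p = 0.0408 and 0.0403; -0.58). Of the B cell markers 10 of 10 lay below 0 in CR-L against WT (median -0.21) and 9 of 10 in CR (median -0.14), none past the threshold. The part of B cells alone in the values of these genes was not tested. Ccnd2 went with the 10 markers of cytotoxic cells (r = 0.68, rho = 0.64, permutation adjusted p = 0.000832 and 0.00999; 0.64 without CR-L 3 and CR-L 10). With the 12 monocyte markers went Aurka (r = 0.62, rho = 0.61, permutation adjusted p = 0.00904 and 0.02) and Cdkn1a (r = 0.57, rho = 0.56, permutation adjusted p = 0.031 and 0.0453), at 0.54 and 0.54 without CR-L 5 and CR-L 6.

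Each of the 3 called genes passed with the progenitor list by r alone or by rho alone, none by both. Ccnd1 and Ccnd3 went with its 4 measured genes, of which 2 were well above background on all arrays. For Ccnd1 r was 0.61 and rho 0.54 (permutation adjusted p = 0.00904 and 0.0552), with 0.53 without WT 5 and CR-L 2 and 0.50 with group means subtracted. For Ccnd3 r was 0.55 and rho 0.54 (permutation adjusted p = 0.0402 and 0.0561), with 0.52 without those arrays and 0.39 with group means subtracted. The mean of that list had a median of 0.032 in WT, 0.084 in CR and 0.14 in CR-L, and all 4 of its genes lay above 0 in both comparisons with WT, none past the threshold. Mcm6 went against the same list and passed by rho alone (rho = -0.56, permutation p = 0.00109, adjusted p = 0.0403), with r = -0.50 (permutation p = 0.00426, adjusted p = 0.0709), -0.42 without those arrays and -0.31 with group means subtracted. The part of that list in the differences of the 3 called genes was not tested.

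The remaining pairs past the threshold by r alone were Cdc6 with 16 T cell markers (r = 0.54, rho = 0.53, permutation adjusted p = 0.0402 and 0.0591), E2f1 with 5 plasma cell markers (r = 0.58, rho = 0.50, permutation adjusted p = 0.0226 and 0.0832) and Cdkn1a with 10 platelet markers (r = -0.53, rho = -0.47, permutation adjusted p = 0.0408 and 0.0996). Without the 2 farthest arrays of each list these were 0.55, 0.51 and -0.42. The platelet markers lay below 0 in 10 of 10 cases between CR-L and CR (median -0.40) and above 0 in 10 of 10 in CR against WT (median 0.46), none past the threshold. Pcna went against the platelet markers by rho alone (rho = -0.63, permutation adjusted p = 0.00999; r = -0.50, permutation adjusted p = 0.0709). No gene passed with the 12 granulocyte markers by either measure.

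**Figure D5:**
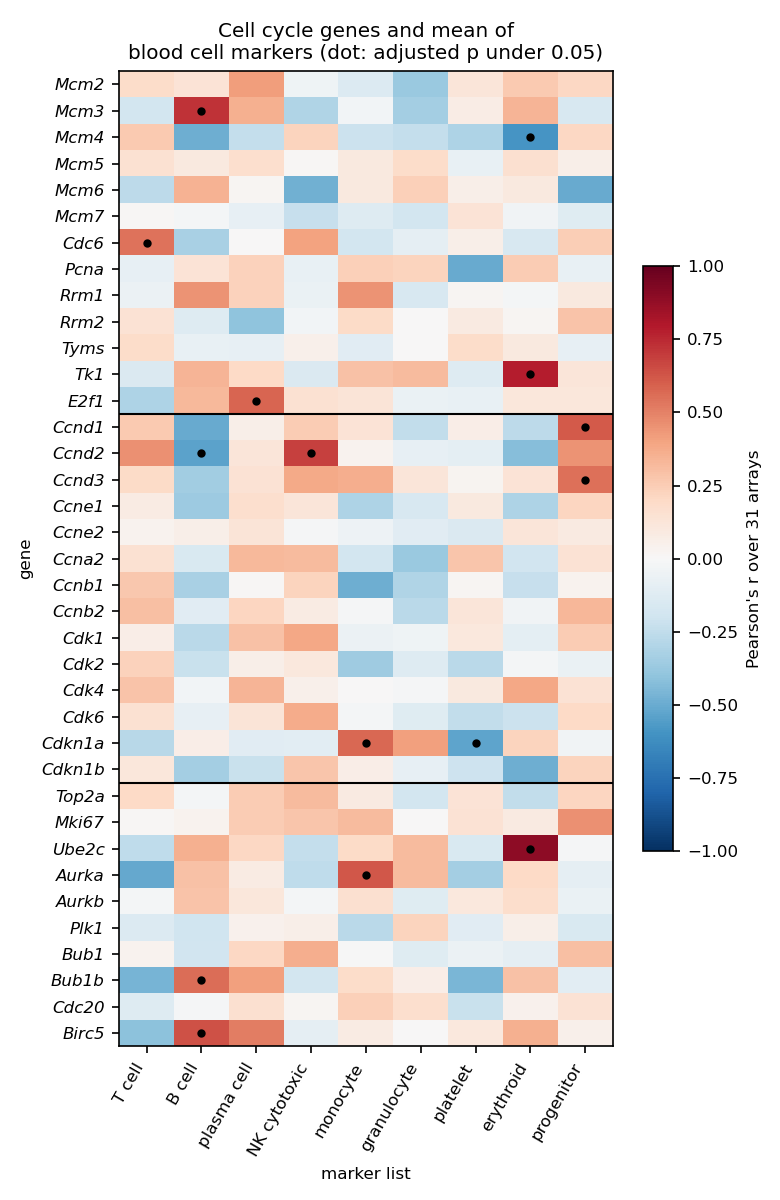
Pearson's r over 31 arrays (colour) between each of the 37 genes (rows) and the mean of each of 9 marker lists (columns); dots mark the 15 pairs with an adjusted permutation p of r under 0.05. The deepest colours are those of Ube2c and Tk1 with erythroid markers and Mcm3 with B cell markers.

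Beyond the 37, 120 of 147 other listed genes of the cycle were measured. In CR-L against WT 5 of them were called (4.17%, against 3.54% of all features), 4 higher and 1 lower, and in CR against WT 1 was (0.833%, against 0.467%). Their median difference was 0.023 in CR-L and 0.016 in CR. None was called between CR-L and CR, where 4 of 120 passed at an unadjusted p under 0.05 (limma) and the median was 0.00019.

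In G1 control, where 20 were measured, Tfdp1, the dimer partner of E2F factors, rose in both groups (CR 0.27 ± 0.055, limma adjusted p = 0.0245; CR-L 0.23 ± 0.054, adjusted p = 0.0104). Cdkn2a in CR (0.15 ± 0.055) and Rbl2 in CR-L (0.15 ± 0.065) came next and did not pass. CR-L had E2f2 at 0.23 ± 0.12 and Tfdp2 at 0.36 ± 0.22 in comparison with CR.

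Among 13 checkpoint genes, Chek2, a damage checkpoint kinase, rose in CR-L against WT (0.19 ± 0.055, limma adjusted p = 0.0446). Gadd45a, which is induced by damage and stress, fell (-0.31 ± 0.079, adjusted p = 0.0245). In CR against WT Gadd45a did not pass (-0.30 ± 0.082). In CR-L against CR, Wee1 stood at -0.11 ± 0.057 and Chek2 at 0.095 ± 0.048.

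In mitosis, where 44 were measured, Bub3, which recruits Bub1 to chromosomes, rose in CR-L (0.16 ± 0.044, limma adjusted p = 0.0352) and stood at 0.13 ± 0.046 in CR. Nuf2, of the outer kinetochore, stood at 0.19 ± 0.062 in CR and 0.19 ± 0.060 in CR-L, and Kif20a and Cdca3 at 0.13 ± 0.058 and 0.14 ± 0.067 between CR-L and CR.

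None of the 18 genes of origin licensing and firing and the 25 of polymerases and the fork was called. Those with the smallest p against WT were Cdc45 (0.14 ± 0.050) and Dbf4 (-0.19 ± 0.070) in CR and Dbf4 (-0.19 ± 0.067) and Orc1 (-0.25 ± 0.091) in CR-L. For polymerases and the fork they were Pold3 (-0.13 ± 0.055 in CR, -0.18 ± 0.053 in CR-L, limma adjusted p = 0.054) and Rpa3 (0.10 ± 0.047 and 0.096 ± 0.046). For CR-L against CR they were Gins4 (0.080 ± 0.041), Orc3 (0.092 ± 0.060) and Dut (-0.15 ± 0.062).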

How the data were processed

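Per the labels, each of 31 arrays held 1 rat PBMC sample in Cy5 and the reference pool in Cy3, with no dye swap. The authors deposited scanner files of spot intensity, whose log10 ratio of red over green Feature Extraction (10.7.3.1, per the submitters' processing notes) had made, and a series table of log2 values that tracked the log2 red intensity (lowest correlation 0.993) with every column median at 8.17. Its further normalization is not given in the sources used here, and the number of arrays limits the precision.

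In limma 3.58.1 (R 4.3.3), normexp background correction (offset 50) was followed by loess within arrays. Of 45018 spots per array, 1639 control spots and outlier spots (0.408% of values) were left out. Spots of a probe were averaged, and the brightest probe past the filter stood for a gene. Groups were compared with lmFit and eBayes over all arrays, in two-sided tests; p-values were adjusted by Benjamini-Hochberg and called at 0.05. The fit was tested on simulated data.

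All 37 genes are named; those with the 3 smallest p per role and comparison are given by sample, and up to 2 per other list and comparison, where some results are not reported here. Members and lists were chosen with earlier results of these data known. Replicate numbers were checked and gave no clear pairing of samples. Positions of probes are on rn4, per the file headers. Exon and UTR annotation was not used here. Alternatives were other background, normalization, filter, probe, block, covariate and sample choices.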

Additional observations from a re-analysis of the deposited data

Results flagged for a closer look

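In Ccnd2, WT 1 stood apart from the other 6 WT samples: it read 0.32, the next was -0.0057 and the lowest -0.21. Its gap is 0.618 of the range of the group. This was 1 of 37 genes tested in the WT group, where chance alone flags about 5%. Without WT 1 the difference of Ccnd2 was 0.32 in CR and 0.26 in CR-L.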

How the results depend on the processing

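Each comparison was recomputed under 16 alternatives and without each sample in turn. Between CR-L and CR 0 features and 0 members were called under all of them, and between CR and WT 0 members. No member with an unadjusted p under 0.05 changed direction. Of all 37 members, 25 kept their sign in every alternative in CR-L against WT, 19 in CR against WT and 14 between CR-L and CR.

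The number of members called in CR-L against WT was 3, 1 with scaling between arrays, 0 with array medians without loess, 4 without background subtraction (with Cdc6 added), and 1 to 4 without single samples. With Agilent's log ratio it was 3, Cdc6 in place of Ccnd3. WT 2 and WT 3 were those whose loss left 1. The features called there numbered 789, and 338 with scaling, 500 with the authors' series table, 75 with array medians, and 420 (without WT 4) to 1100 without single samples. The 104 features of CR against WT became 65 with Agilent's log ratio, 9 with scaling, 37 with the red channel alone, 0 with the series table and 0 with array medians. They became 66 without a filter, 170 with all arrays above background, 388 with array weights, 197 with only the groups compared, and 17 (without WT 4) to 207 (without CR 9) without single samples. The cause was not tested. In CR against WT 76% of called features were higher, and 65.9% without background subtraction, 58.5% with Agilent's log ratio, 44.4% with scaling and 45.9% with the red channel. In CR-L against WT it was 60.6%, and 96% with array medians.

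With the replicate number as a block, 241 features were called in CR against WT and 923 in CR-L against WT. Ccnd1 then missed the threshold (0.52 ± 0.16, limma adjusted p = 0.0702) and Ccnd2 passed (0.34 ± 0.093, adjusted p = 0.0431), while no other member changed its call. No clear pairing by number was seen: correlations of same-numbered samples ran from -0.42 to 0.45, and a sample was closest to its own number in 0 of 7, 1 of 7 and 1 of 11 cases. For CR-L and WT their mean was 0.073, against -0.0052 for other pairs. Such correlations cannot exclude that a number marks a shared litter or day. With slide as a fixed block, Mcm6 (-0.30), Ccnd1 (0.51) and Ccnd3 (0.22) passed. Ccnd3 and Mcm6 rest on 1 probe each. Ccnb2, Ccne2, Cdc6, Mcm5, Top2a and Tyms had no value under the filter that asks for all arrays. The medians by role under that filter rest on 10 replication, 12 cyclin and 9 mitosis genes.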
